A study of Mus musculus with 29 samples.

Results

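The nuclear-encoded subunits of the mitochondrial respiratory chain were taken as the protein-coding nuclear genes whose symbols start with Ndufa, Ndufb, Ndufc, Ndufs or Ndufv and a number, with Uqcr, with Atp5, or with Cox4 to Cox8 followed by a, b or c, together with Sdha, Sdhb, Sdhc and Sdhd. The rule used names and no measured value, but it was set with earlier results of these data known. It gave 83 genes, of 47729, 49585 and 52550 Ensembl genes in the crypt, tissue and organoid tables. Complex I had 37 of them, complex II 4, complex III 8, complex IV 16 and complex V 18. A second entry for Atp5o was not analysed here, and the other 82 were read in each of the 29 libraries. Another 12 matches, 11 processed pseudogenes and 1 long non-coding RNA, were left out. A choice by name has edges: Ndufa4 is a structural subunit of complex IV, Atp5s is not a structural subunit of the ATP synthase, and Cox4i1, Cyc1 and Ndufab1 are subunits whose symbols it does not catch. These 3 are given apart, with electron carriers. Ndufa4 and its homologue Ndufa4l2 are counted in complex I by name throughout, also in its shares and sums.

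The respiratory chain passes electrons from NADH (complex I) and succinate (complex II) through coenzyme Q, complex III and cytochrome c to oxygen at complex IV, and the proton gradient built on the way drives ATP synthesis at complex V. Each complex except complex II combines subunits made in the nucleus with a few encoded by mitochondrial DNA, so its assembly draws on both genomes. In the intestine, oxidative metabolism is used both by absorptive enterocytes and by crypt base stem cells.

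The series holds crypts, whole small intestinal tissue and organoids of C57BL/6 mice, sequenced as bulk poly(A) RNA. The alleles are called H2B and p53, read here as Rnaseh2b, which encodes subunit B of the ribonucleotide-removing enzyme RNase H2, and Trp53. Alleles marked dIEC are deleted in intestinal epithelial cells, the Cre driver is not given in the sources used here, and flox/flox marks undeleted controls. Crypts came from 52-week-old mice, 4 H2BdIEC and 4 H2B flox/flox. Tissue comprised 4 tumors and 4 adjacent normal samples of the same H2B/p53dIEC mice (1349, 1323, 1322 and 1319), and 4 samples of H2B/p53flox/flox mice, labelled adjacent normal tissue too and called tissue controls here. Organoids comprised 3 H2B/p53dIEC, 3 H2BdIEC and 3 control libraries. Organoid controls are titled wild type but carry the genotype H2B/p53flox/flox, and the labels tie no organoid library to a mouse. The age of the tissue and organoid donors was not used here. Where libraries of 1 group are not stated to come from separate animals or cultures, p-values measure only the spread between them.

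Library totals were 15545059 to 18817537 counts in H2BdIEC crypts and 23118463 to 25913155 in control crypts. They were 21884287 to 30290711 in tumors, 22370148 to 34086149 in adjacent tissue and 401365 to 41504298 in tissue controls, where the low value is control 1320. Organoid totals were 13549741 to 15844236 (H2B/p53dIEC), 5774771 to 15136734 (H2BdIEC, lowest in A) and 16803119 to 21386586 (control). Rnaseh2b was at 2.13 to 2.71 CPM in H2BdIEC and 6.87 to 14.4 CPM in control crypts, at 2.53 to 6.19 CPM in tumors, 2.49 to 5.42 CPM in adjacent tissue and 12.8 to 24.1 CPM in tissue controls. In organoids it was at 1.08 to 2.15 CPM in H2B/p53dIEC, 4.97 to 7.04 CPM in H2BdIEC and 14.8 to 18.3 CPM in controls, and Trp53 at 9.95 to 11.7 CPM in H2B/p53dIEC, 78.2 to 110.1 CPM in H2BdIEC and 98.2 to 115 CPM in controls. Ndufa4l2, Cox6a2, Cox7b2, Cox8b, Cox8c, Atp5g2 and Atp5s had 3 counts or fewer in at least 1 library, and the other members had more in all. Levels are given in CPM, counts brought to a common library size with TMM scaling within crypts, tissue or organoids only. They are therefore not compared between these sets, except to describe how reads were assigned. A member was called changed at an adjusted p under 0.05 in edgeR's quasi-likelihood test with Benjamini-Hochberg adjustment over all genes tested, and fold changes are given as log2 values ± SE.

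Members made up between 1.23% and 1.96% of the counts of nuclear genes in each group on average. In tumors all members together held 1.41 ± 0.247% of these counts, against 1.23 ± 0.117% in adjacent tissue and 1.37 ± 0.0650% in tissue controls (SD, n = 4 each). The complexes did not follow one another. Complex I members held 0.407 ± 0.0670% in tumors, 0.287 ± 0.0186% in adjacent tissue and 0.297 ± 0.0182% in tissue controls, and all 4 tumors lay above all 8 other tissue libraries. Complex II members held 0.0769 ± 0.0182% in tumors, 0.0956 ± 0.0103% in adjacent tissue and 0.114 ± 0.00685% in tissue controls, so complex II was the one whose share was lower in tumors than in adjacent tissue. For complexes III, IV and V the direction depended on the scaling. Complex V members held 0.525 ± 0.106% in tumors and 0.494 ± 0.0604% in adjacent tissue as a share of nuclear counts, yet their summed level was 4301 ± 1036 CPM in tumors and 5344 ± 969 CPM in adjacent tissue after TMM scaling. For complex I the sums were 3327 ± 616 CPM in tumors and 3095 ± 376 CPM in adjacent tissue. For complex II they were 630.3 ± 169.9 CPM in tumors and 1036 ± 187 CPM in adjacent tissue. Both kept their directions, but for complex I the difference after TMM scaling was smaller than the spread within either group.

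In organoids all members together held 1.75 ± 0.00668% of nuclear counts in the H2B/p53dIEC genotype, 1.89 ± 0.139% in H2BdIEC and 1.96 ± 0.0739% in controls (SD, n = 3 each). The 3 H2B/p53dIEC libraries differed little among themselves and lay below all 3 control libraries for each complex. In crypts the share was 1.601 ± 0.200% in H2BdIEC mice and 1.70 ± 0.178% in controls (SD, n = 4 each), a difference smaller than the spread within either group. Per kilobase of transcript, Atp5b, the catalytic beta subunit of the ATP synthase, was the most abundant member in every group except the tumors. In tumors Atp5g3, which encodes the proton-carrying c subunit, came first at 561 ± 155 CPM per kilobase, Uqcrh, the hinge protein of complex III, was next at 519.8 ± 146, and Atp5b was at 504 ± 133 (SD, n = 4). These means lay within their spreads of each other. In adjacent tissue Atp5b was at 780.1 ± 157 CPM per kilobase, Atp5g3 at 689 ± 154 and Uqcrh at 538 ± 119.6, and in tissue controls Atp5b stood at 962 ± 13.98.

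**Figure D1:**
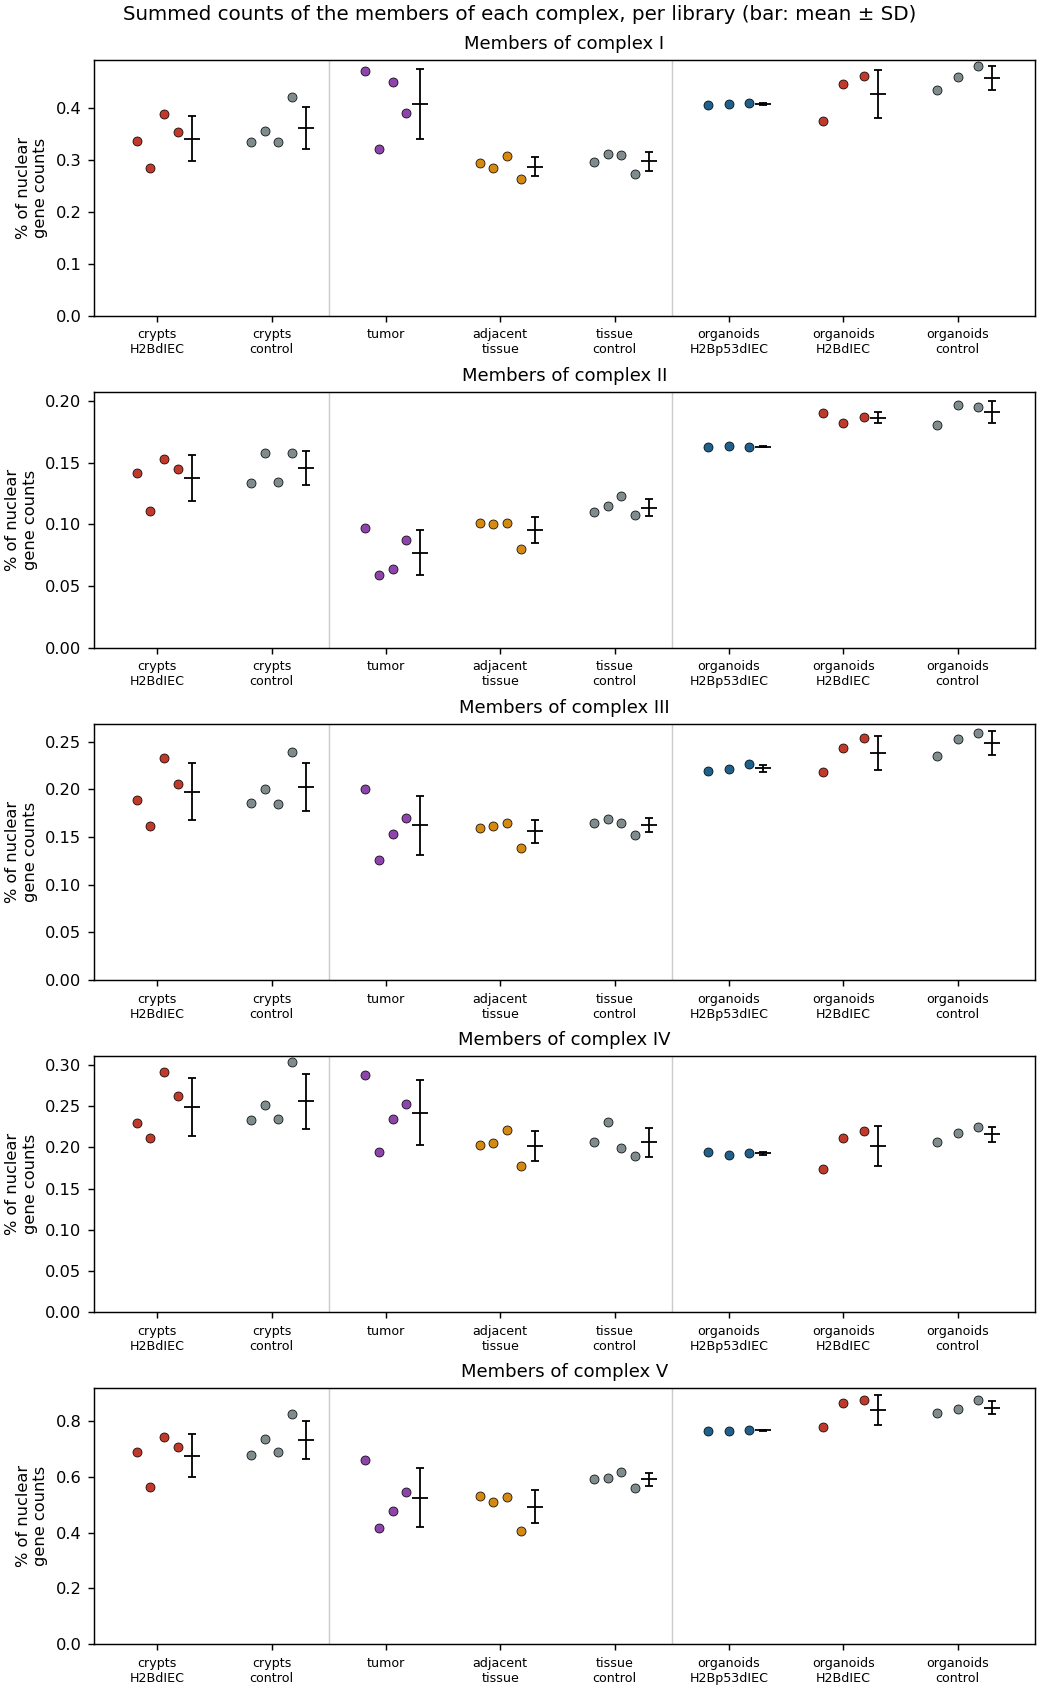
Summed counts of the members of each complex as a percentage of the counts of nuclear genes, 1 point per library, with the group mean ± SD as a bar to the right of the points. By this share complex I is higher in the 4 tumors than in the other tissue libraries, which its TMM-scaled sums do not show beyond their spread. Mean complex II is lowest in tumors, and the 3 H2B/p53dIEC organoid libraries lie below the control organoids in each panel.

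Tumors were compared with the adjacent samples, which asks what differs between tumor and surrounding gut at a fixed genotype. The main fit had no term for the mouse, and adjusted p-values given for this comparison are from that fit unless a block is named. Of 78 members tested, 5 were higher and 11 were lower in tumors. The 5 that rose were all counted in complex I by name, 1 of them being Ndufa4l2, a homologue of Ndufa4. The 11 that fell were 1 gene of complex I, 2 of complex II, 4 of complex III and 4 of complex V. Across all 17666 genes tested, 23.0% were called higher and 24.0% lower, against 6.41% of members higher and 14.1% lower. The median log2 fold change was -0.03 for members and -0.00 for all genes. With the mouse as a block, which the shared animals allow, 1 member was higher and 5 were lower: Ndufa4l2 rose and Ndufs1, Sdha, Uqcrc2, Uqcrfs1 and Uqcrb fell. With DESeq2 size factors in place of TMM the split was 7 higher and 8 lower. Leaving out 1 library at a time gave 7 to 20 calls, with 7 without tumor 1322 and 10 without adjacent 1349 or adjacent 1322. In bulk tissue, fewer cells of a type and less RNA per cell cannot be told apart.

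Cell type markers moved with these differences, and their part in the results was not tested. The 8 enterocyte markers summed to 17048, 2544, 738 and 14116 CPM in tumors 1349, 1323, 1322 and 1319, against 29657, 116417, 30758 and 50846 CPM in the adjacent tissue of those mice, and 6 of the 8 were called lower. All 8 smooth muscle markers were lower, with sums of 319 to 859 CPM in tumors and 2944 to 4394 CPM in adjacent tissue. The 4 fibroblast markers summed to 924 to 7862 CPM in tumors and 194 to 642 CPM in adjacent tissue, with 2 of 4 called higher. The 4 crypt base stem cell markers summed to 714 to 823 CPM in tumors and 66.8 to 130.1 CPM in adjacent tissue, with 3 of 4 called higher. The 5 pan-epithelial markers summed to 3698 to 6926 CPM in tumors and 10430 to 16393 CPM in adjacent tissue, with 4 of 5 called lower. None of these lists had a marker at 0 in every library of a tissue group. Of 3 Paneth cell markers 1 was called higher and 2 lower, and of 3 tested acinar pancreas markers 2 were called higher. Of the striated muscle markers Ckm was called lower (-3.76 ± 0.56, adjusted p = 0.00024), and Actn2, Myh7 and Tnnt3 did not pass. Of the endothelial markers Cdh5 was called higher, and Pecam1 and Kdr did not pass. Of the immune markers Cd79a was called lower, and Ptprc, Cd3e, Adgre1 and Itgam did not pass.

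**Figure D2:**
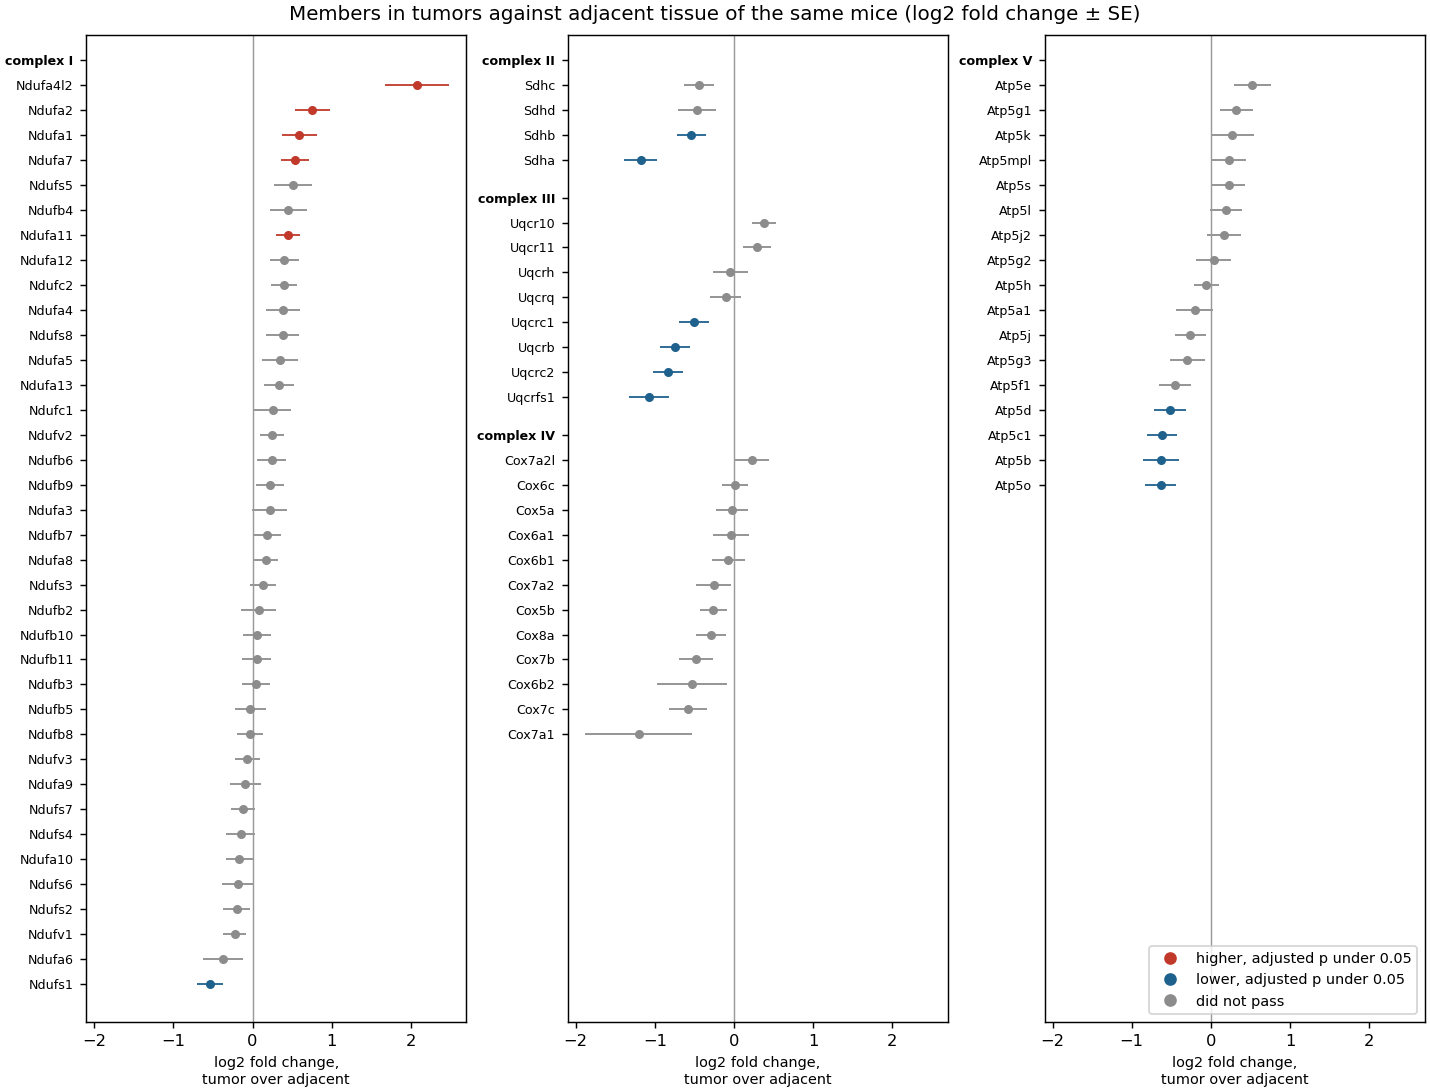
Log2 fold change ± SE of each tested member in tumors over adjacent tissue (n = 4 each), by complex, red for higher and blue for lower at an adjusted p under 0.05, grey for members that did not pass. The 5 red points are all in complex I as assigned by name, Ndufa4l2 among them, and the blue points are mostly in complexes II, III and V.

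Complex II is succinate dehydrogenase, the one complex built from nuclear genes alone and shared with the tricarboxylic acid (TCA) cycle. Sdha, the flavoprotein that oxidises succinate (chr13:74322254-74350280, GRCm38, minus strand), had 239.8, 134, 133 and 212 CPM in tumors 1349, 1323, 1322 and 1319, against 436, 440.0, 429 and 323 CPM in adjacent tissue of the same mice. Every tumor lay below every adjacent sample, and tumors 1323 and 1322 were the lowest (log2 fold change -1.18 ± 0.21, adjusted p = 0.000783; 0.441 times the adjacent level). Sdhb, its iron-sulphur partner, had 161, 99.4, 103 and 122 CPM in tumors and 173, 221, 174 and 139 CPM in adjacent tissue, lower in the tumor of each of the 4 mice although the groups overlapped (-0.54 ± 0.19, adjusted p = 0.0311). The membrane anchors Sdhc and Sdhd, which hold the quinone site, did not pass, at -0.44 ± 0.19, adjusted p = 0.0711 and -0.47 ± 0.24, adjusted p = 0.125. The 2 catalytic subunits therefore passed and the 2 anchors did not; the difference between subunits was not tested.

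In complex III, which hands electrons from coenzyme Q to cytochrome c, the catalytic Rieske iron-sulphur protein Uqcrfs1 (chr13:30540308-30545362, minus strand) had 147, 88.8, 65.1 and 127 CPM in tumors and 248, 273, 209 and 172 CPM in adjacent tissue. The groups did not overlap (log2 fold change -1.08 ± 0.25, adjusted p = 0.004). Both core proteins, which form the matrix arm, fell: Uqcrc2 had 228, 151, 138 and 177 CPM in tumors against 348, 358, 308 and 230.1 CPM in adjacent tissue (-0.84 ± 0.19, adjusted p = 0.00337). Uqcrc1 was at -0.50 ± 0.19, adjusted p = 0.0451. Uqcrb, a small subunit near the quinone site, had 64.0, 37.2, 38.1 and 52.98 CPM in tumors and 91.3, 70.3, 92.7 and 69.4 CPM in adjacent tissue (-0.75 ± 0.19, adjusted p = 0.00628), and 43.4% of its 50-base stretches recur in other genes. Of the other 4 small subunits none passed, and Uqcr10, Uqcr11, Uqcrh and Uqcrq ranged in log2 fold change between -0.10 and 0.38. As in complex II, the lowest tumor for the 4 called genes was 1323 or 1322.

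In complex V the called genes belonged to the catalytic F1 head and the stalk that holds it. Atp5b had 1305, 897, 691 and 970.02 CPM in tumors and 1627, 1763, 1522 and 1067 CPM in adjacent tissue, lower in all 4 mice with overlapping groups (-0.63 ± 0.23, adjusted p = 0.0386). Atp5c1, the rotating gamma subunit, was at -0.62 ± 0.19, adjusted p = 0.0195, and Atp5d, the delta subunit of the rotor, at -0.52 ± 0.20, adjusted p = 0.0482. Atp5o, the stalk subunit also known as OSCP, was at -0.63 ± 0.20, adjusted p = 0.0196, and 50.3% of its 50-base stretches recur in other genes, so its reads may be split. Of the F1 head 3 of 5 subunits fell and of the stalk 1 of 4. None of the 4 membrane subunits passed, nor did any of the 3 genes of the c subunit.

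Complex I, the NADH dehydrogenase, had the only increases. Ndufa4l2, a homologue of Ndufa4 known as a target of hypoxia-inducible factor (chr10:127514967-127517154, plus strand), had 3.74, 12.3, 6.61 and 3.93 CPM in tumors against 1.48, 1.21, 1.75 and 1.84 CPM in adjacent tissue. It was higher in all 4 tumors without overlap and highest in tumor 1323 (log2 fold change 2.08 ± 0.41, adjusted p = 0.00145; 4.22 times the adjacent level). Its level stayed low beside that of Ndufa4, which had 257, 119.7, 218 and 202 CPM in tumors and 160.2, 178, 150.1 and 122 CPM in adjacent tissue and did not pass (0.38 ± 0.21, adjusted p = 0.155).

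Ndufa2, an accessory subunit of the NADH-oxidising N module, had 172, 89.4, 160.5 and 108 CPM in tumors and 66.6, 95.3, 75.6 and 77.0 CPM in adjacent tissue. It was higher in 3 of 4 mice, not in 1323 (0.75 ± 0.22, adjusted p = 0.0146). Ndufa7, an accessory subunit of the quinone-reducing Q module, had 129.7, 79.6, 127 and 104 CPM in tumors against 73.1, 93.8, 75.6 and 60.9 CPM in adjacent tissue, again with 1323 as the exception (0.54 ± 0.18, adjusted p = 0.0258). Ndufa11, of the proton-pumping P module in the membrane, was higher in all 4 tumors (103, 79.3, 99.5 and 73.5 CPM) than in any adjacent sample (63.8, 67.8, 68.6 and 60.5 CPM; 0.45 ± 0.15, adjusted p = 0.0273). Ndufa1, also of the membrane arm, was at 0.59 ± 0.22, adjusted p = 0.042. Ndufs1, the largest core subunit, which carries iron-sulphur clusters of the N module, went the other way, with 97.4, 69.9, 65.4 and 77.0 CPM in tumors and 133, 115, 115 and 86.9 CPM in adjacent tissue (-0.54 ± 0.16, adjusted p = 0.0165). The other 31 complex I members did not pass. By module, 2 of 19 P module members rose and 0 fell, 1 of 8 N module members rose and 1 fell, and 1 of 8 Q module members rose.

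Complex IV, cytochrome c oxidase, had 0 of 12 tested members called. Its smallest adjusted p was 0.0668, for Cox7c (log2 fold change -0.58, 52.95% of 50-base stretches shared), at an unadjusted p under 0.05 2 members were lower and 0 higher, and 10 of 12 estimates were negative with a median of -0.26. DESeq2's Wald test called 17 members over all complexes. Cox7a1, which had the lowest fold change of the complex, is described with the isoforms.

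Core and accessory members were then counted apart, with the complex I subunits that have bacterial counterparts, all of complex II, the Rieske and core proteins of complex III and the F1 head and c subunit of complex V taken as core. Of 22 core members tested, 0 were higher and 9 lower in tumors, with a median log2 fold change of -0.37. Of 54 accessory members, 4 were higher and 2 lower, with a median of 0.05. Ndufa4l2 and Atp5s belong to neither. Transcript length differed along with this division. Of 46 members whose principal transcript is under 1000 nt, 5 were higher and 2 lower (median 0.06), and of 32 members at or over 1000 nt, 0 were higher and 9 lower (median -0.18). Over all protein-coding genes the medians were 0.39 under 1000 nt (930 genes) and 0.01 at or over it (14320 genes). Core members are mostly long, and the part of transcript length in their values was not tested. The median of the members lay below that of all protein-coding genes on either side of 1000 nt.

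**Figure D3:**
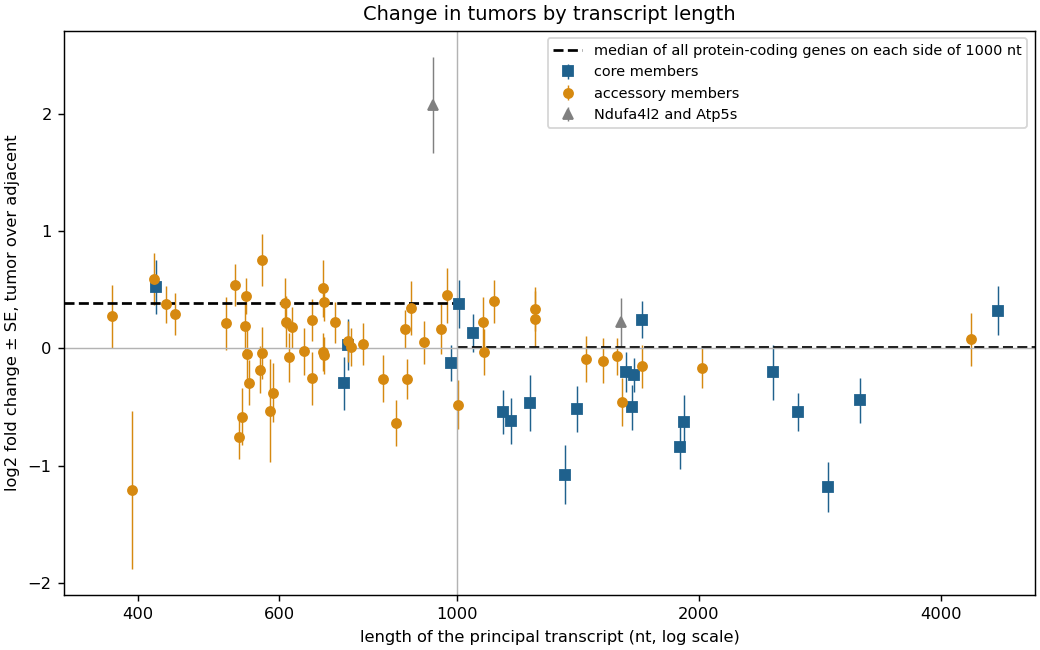
Log2 fold change ± SE of each tested member in tumors over adjacent tissue against the length of its principal transcript on a log axis, squares for core, circles for accessory members and triangles for Ndufa4l2 and Atp5s. Dashed lines are the medians of all protein-coding genes on either side of 1000 nt, at 0.39 and 0.01, and most long core members lie below their line.

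Other genes of mitochondrial energy metabolism were counted from lists of known members, to be read against the 23.0% of all genes called higher and 24.0% called lower in tumors. Of 77 genes of the mitochondrial ribosome, which translates the mitochondrially encoded subunits, 35 were higher and 2 lower in tumors, with a median log2 fold change of 0.44. Of 12 tested mitochondrially encoded subunits 0 were higher and 8 lower (median -1.09), among them mt-Nd5 of complex I (-2.06 ± 0.32, adjusted p = 0.000303) and mt-Co1 of complex IV (-1.91 ± 0.34, adjusted p = 0.000745). The 13 genes of this kind together held 1.38 ± 0.399% of all counts in tumors, 2.78 ± 0.638% in adjacent tissue and 2.30 ± 0.280% in tissue controls. Of 16 TCA cycle genes 1 was higher and 6 lower: Cs, citrate synthase, was at -1.60 ± 0.27, adjusted p = 0.00059, and Ogdh, of the 2-oxoglutarate dehydrogenase, at -1.45 ± 0.21, adjusted p = 0.000218. Of 10 electron carriers and subunits outside the name rule 0 were higher and 3 lower, including Etfdh, which feeds electrons from fatty acid oxidation to coenzyme Q (-1.41 ± 0.21, adjusted p = 0.000274), and Cycs, cytochrome c (-0.80 ± 0.27, adjusted p = 0.0276). Cox4i1 did not pass (-0.35 ± 0.22, adjusted p = 0.203).

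Of 47 assembly factors 11 were higher, a share close to that of all genes (23.0%), and 4 lower, against 24.0% of all genes. Sdhaf1, which helps insert iron-sulphur clusters into Sdhb, was higher (1.55 ± 0.18, adjusted p = 4.99e-05), while Sdhb was lower. Uqcc2, needed for making cytochrome b, was at 1.24 ± 0.23, adjusted p = 0.00112. Of 20 regulators of mitochondrial biogenesis 5 were higher and 7 lower, with Hnf4a, a transcription factor of enterocytes, at -2.32 ± 0.30, adjusted p = 9.43e-05 and Esrra, the estrogen-related receptor alpha, at -1.74 ± 0.29, adjusted p = 0.000517. Of 13 coenzyme Q synthesis genes 0 were higher and 4 lower, of 11 carriers and porins 1 was higher and 6 lower, and of 17 glycolysis genes 3 were higher and 1 lower, among them Pkm, pyruvate kinase (0.89 ± 0.22, adjusted p = 0.0055).

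Tumors were also compared with the tissue controls, which share the tumor libraries with the comparison above. Of 78 members 7 were higher and 16 lower in tumors, against 28.6% of all genes called higher and 26.1% lower. Sdha was lower at -1.55 ± 0.21, adjusted p = 8.89e-05, with 506, 543, 537 and 525 CPM in the controls, all above every tumor. Uqcrb was at -1.12 ± 0.19, adjusted p = 0.000411, Uqcrc2 at -1.11 ± 0.19, adjusted p = 0.000413, Atp5b at -0.93 ± 0.23, adjusted p = 0.00437 and Ndufs1 at -0.83 ± 0.17, adjusted p = 0.0011. Ndufa4l2 was higher at 2.84 ± 0.47, adjusted p = 0.000303, with 0.971, 0.729, 2.67 and 0.906 CPM in the controls, where the third value is a single count in the shallow control 1320. Complex IV had 2 calls, Cox7a2l, which takes part in assembling respiratory supercomplexes, at 0.64 ± 0.22, adjusted p = 0.0246, and Cox7b at -0.67 ± 0.21, adjusted p = 0.0188. Core members were 0 higher and 10 lower of 22. Enterocyte markers summed to 738 to 17048 CPM in tumors and 27209 to 36125 CPM in tissue controls, with 4 of 8 called lower and 2 called higher, Apoa4 (5.59 ± 1.498, adjusted p = 0.0074) and Lct (6.94 ± 2.56, adjusted p = 0.0365). All 8 smooth muscle and all 5 pan-epithelial markers were lower, and 3 of 4 stem cell and 3 of 4 fibroblast markers were higher. The part of these cells in the results was not tested.

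Adjacent tissue of H2B/p53dIEC mice was compared with the tissue controls. None of 78 members passed in edgeR's quasi-likelihood test, 0 had an unadjusted p under 0.05, and DESeq2's Wald test called 0. Over all genes 0.792% were called higher and 0.277% lower. The smallest adjusted p was for Ndufs4, an accessory subunit of the N module, at -0.37 ± 0.19, adjusted p = 0.334. Members had a median of -0.07 and all genes of 0.04. These groups differed in enterocyte gene levels. Enterocyte markers summed to 29657 to 116417 CPM in adjacent tissue and 27209 to 36125 CPM in tissue controls. Among them Apoa4, an apolipoprotein of absorptive cells, was called higher, at 339 to 42099 CPM in adjacent tissue and 28.3 to 112 CPM in tissue controls (7.62 ± 1.64, adjusted p = 0.0499), and Lct, lactase, did not pass at 7.89 ± 2.63 (adjusted p = 0.153). Smooth muscle markers summed to 2944 to 4394 CPM in adjacent tissue and 4412 to 7159 CPM in tissue controls, with 0 of 8 called, and none of the other marker lists had a call. The part of these cells in the comparison was not tested.

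RefSeq promoter windows on GRCm38, here the 250 bases before the start of transcription, were available for 66 of the 82 members. They were searched on both strands for 4 motifs of factors known to bind respiratory genes: CCGGAAG for ETS factors including GABP (NRF-2), GCGCA, any base and then GCGC for NRF1, AAGATGGC for YY1 and TCAAGGTCA for the estrogen-related receptors, none of which contains another. The ETS motif was present in 11 of 66 windows (16.7%), against 9.62% of 16522 windows of protein-coding genes, and the NRF1 motif in 12 (18.2%), against 5.46%. At least 1 of these motifs was found in 20 (30.3%), against 14.2%. The YY1 motif was in 0, against 1.49%, and the receptor motif in 1, against 0.291%. A match is a description of letters, and no match says only that these letters are not in the window. Of the 11 members lower in tumors than in adjacent tissue 8 had a window, and 1 of these, Sdha, held either motif. Of the members lower in H2B/p53dIEC than in control organoids 27 had a window and 3 held either motif (11.1%).

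The 4 stretches below, free of annotated exons, are shown because they span the range found: Uqcrfs1 had no match and was lower in both tumors and H2B/p53dIEC organoids, Uqcrh had an ETS match and was lower in these organoids, and Cox6a1, with NRF1 matches, and Atp5g3, with the receptor match, were called in neither comparison. Cox6a1 also had an ETS match elsewhere in its window. Capitals mark the motif matches, and sequences run 5′ to 3′ on the gene's strand. Coordinates are chr13:30545363-30545566 (minus) for Uqcrfs1, chr4:116075072-116075268 (minus) for Uqcrh, chr5:115348982-115349129 (minus) for Cox6a1 and chr2:73911327-73911576 (minus) for Atp5g3.
Uqcrfs1: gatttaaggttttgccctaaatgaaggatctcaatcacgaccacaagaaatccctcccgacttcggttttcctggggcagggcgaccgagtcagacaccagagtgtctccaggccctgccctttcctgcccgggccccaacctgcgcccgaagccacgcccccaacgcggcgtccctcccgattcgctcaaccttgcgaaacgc
Uqcrh: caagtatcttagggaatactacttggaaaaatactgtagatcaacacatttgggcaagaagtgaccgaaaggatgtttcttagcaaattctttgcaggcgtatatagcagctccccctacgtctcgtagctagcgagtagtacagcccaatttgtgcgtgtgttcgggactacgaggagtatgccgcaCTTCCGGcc
Cox6a1: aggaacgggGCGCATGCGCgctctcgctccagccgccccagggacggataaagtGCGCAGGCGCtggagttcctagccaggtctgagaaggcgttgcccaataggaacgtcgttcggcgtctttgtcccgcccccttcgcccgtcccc
Atp5g3: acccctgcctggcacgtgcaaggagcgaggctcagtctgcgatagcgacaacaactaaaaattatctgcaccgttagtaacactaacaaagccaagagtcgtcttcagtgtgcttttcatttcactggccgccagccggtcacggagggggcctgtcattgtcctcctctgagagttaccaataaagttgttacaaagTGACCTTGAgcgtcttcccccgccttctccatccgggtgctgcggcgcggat

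Organoids hold epithelium without muscle or stroma, and smooth muscle markers summed to at most 31.2 CPM and fibroblast markers to at most 0.532 CPM in them, with 2 to 3 of 8 and 1 to 2 of 4 markers at 0 in a group. The titles of H2BdIEC and control organoid libraries share a prefix and end in letters, while those of H2B/p53dIEC libraries lack the prefix and end in numbers. Each comparison of H2B/p53dIEC organoids coincides with this difference in naming, and genotype and series of libraries cannot be told apart. The H2B/p53dIEC libraries are not stated to be separate cultures and differed little among themselves, and p-values measure only the spread between libraries. H2B/p53dIEC organoids were first compared with controls. Of 79 members tested 1 was higher and 33 were lower, while 16.7% of all 15701 genes were called higher and 16.6% lower. Estimates were below 0 for 76 of 79 members, with a median log2 fold change of -0.22 and of -0.00 for all genes. Most changes were small: 28 of the 33 lower members lay between -0.51 and -0.20 on the log2 scale. By complex, 13 of 37 members of complex I, 4 of 4 of complex II, 4 of 8 of complex III, 7 of 13 of complex IV and 5 of 17 of complex V were lower. Leaving out 1 library at a time gave 20 to 54 calls, with 20 without H2B/p53dIEC library 1 or 2, 22 without control B and 54 without H2BdIEC A, the shallowest, which enters through the shared spread. With only the 2 groups in the fit 53 were called, 1 higher and 52 lower.

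**Figure D4:**
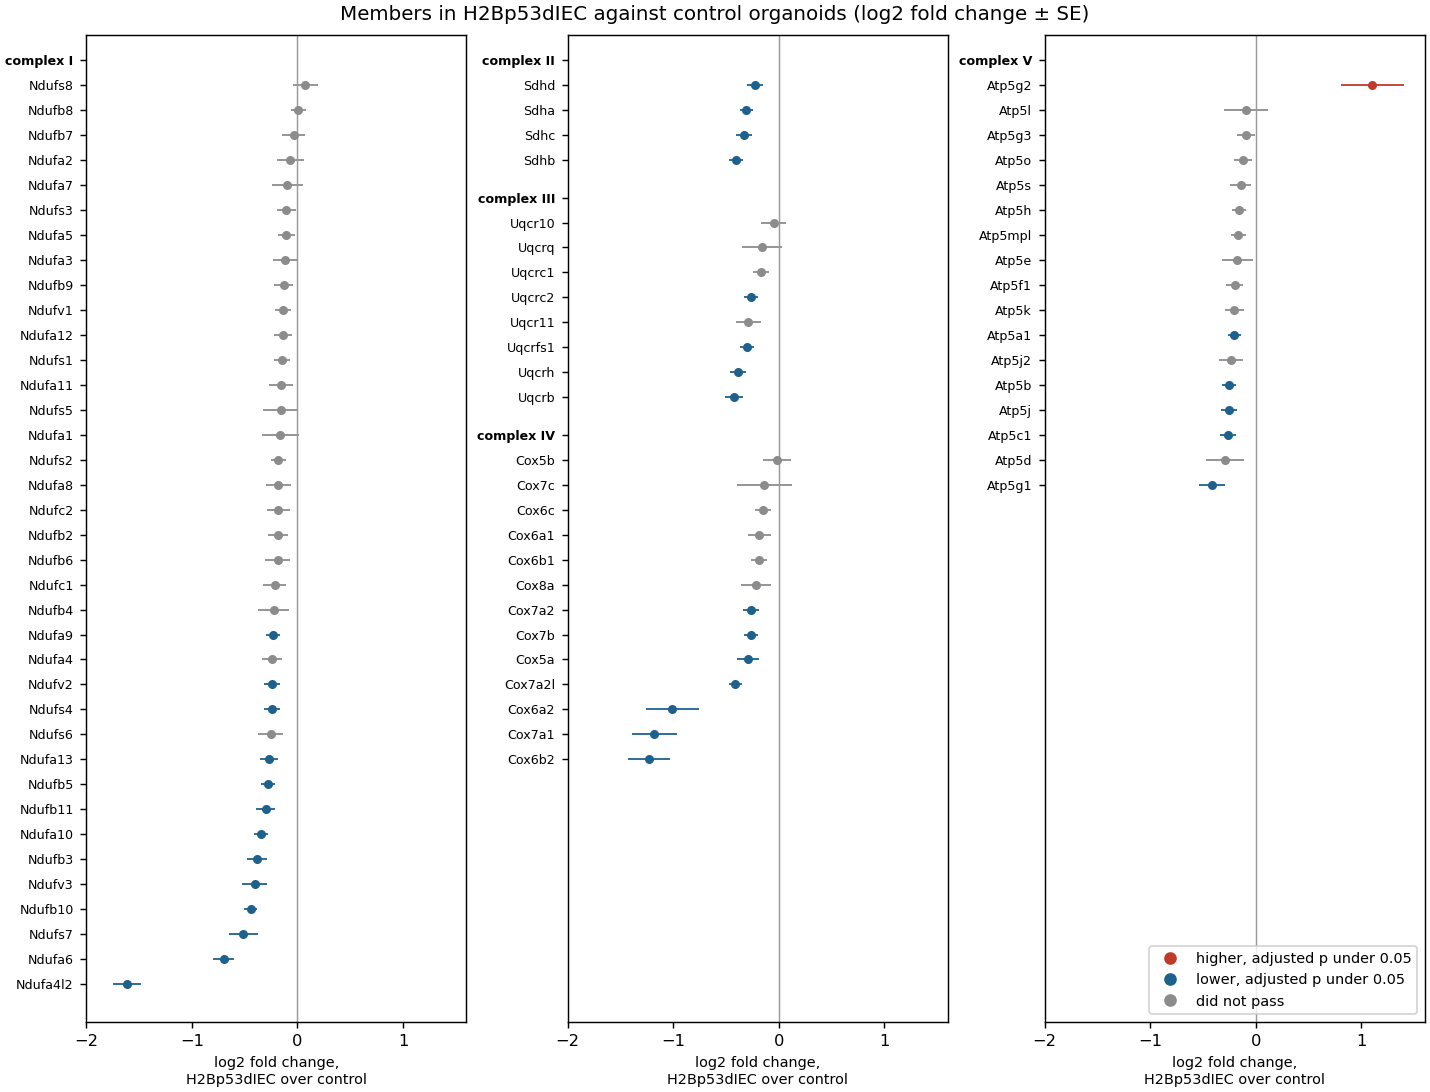
Log2 fold change ± SE of each tested member in H2B/p53dIEC over control organoids (n = 3 each), by complex, red for higher and blue for lower at an adjusted p under 0.05, grey for members that did not pass. Nearly all points lie left of 0, all 4 complex II genes are lower, and Atp5g2 alone is higher.

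All 4 complex II genes were lower. Sdha had 651, 658 and 651 CPM in H2B/p53dIEC organoids, 801, 747 and 766 CPM in H2BdIEC and 772, 831 and 825 CPM in controls. The H2B/p53dIEC libraries lay below all others (log2 fold change -0.31 ± 0.06, adjusted p = 0.00248 against controls). Sdhb was at -0.41 ± 0.06, adjusted p = 0.000483, Sdhc at -0.33 ± 0.07, adjusted p = 0.00439 and Sdhd at -0.22 ± 0.08, adjusted p = 0.0368. In complex I the clearest calls were Ndufa4l2, described with the isoforms, Ndufa6 and Ndufb10. Ndufa6, an accessory subunit of the Q module, had 183, 191 and 182 CPM in H2B/p53dIEC, 189, 243 and 246 CPM in H2BdIEC and 274, 318 and 312 CPM in control organoids (-0.70 ± 0.10, adjusted p = 0.000197). Ndufb10, of the distal membrane arm, had 97.1, 96.3 and 93.4 CPM against 125, 131 and 134 CPM in controls without overlap (-0.44 ± 0.06, adjusted p = 0.00022), and Ndufa10 was at -0.34 ± 0.07, adjusted p = 0.00178.

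In complex III, Uqcrh had 204, 207 and 225 CPM in H2B/p53dIEC organoids, 309, 294 and 277 CPM in H2BdIEC and 259.9, 298 and 275 CPM in controls, lowest in H2B/p53dIEC without overlap (-0.39 ± 0.07, adjusted p = 0.0018). Uqcrb was at -0.43 ± 0.09, adjusted p = 0.0022, Uqcrfs1 at -0.30 ± 0.07, adjusted p = 0.00445 and Uqcrc2 at -0.26 ± 0.07, adjusted p = 0.0094. In complex IV, Cox7a2l had 128, 127 and 136 CPM in H2B/p53dIEC, 165, 172 and 171 CPM in H2BdIEC and 168, 173 and 179.6 CPM in control organoids (-0.41 ± 0.06, adjusted p = 0.000356). In complex V, Atp5b had 2479, 2500.4 and 2492 CPM in H2B/p53dIEC and 2885, 2931 and 3093 CPM in control organoids, a small difference beyond the spread of either group (-0.25 ± 0.06, adjusted p = 0.00846). Atp5c1 and Atp5a1, the gamma and alpha subunits of F1, were at -0.26 ± 0.08, adjusted p = 0.0179 and -0.20 ± 0.06, adjusted p = 0.0197.

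Atp5g2, 1 of 3 genes for the c subunit, was the only member higher, at 1.47, 1.23 and 2.02 CPM in H2B/p53dIEC, 0.355, 0.378 and 0.658 CPM in H2BdIEC and 0.900, 0.575 and 0.714 CPM in control organoids (1.10 ± 0.30, adjusted p = 0.0134). Its level is uncertain: 87.4% of its 50-base stretches recur in 2 other genes, Gm10175 and Gm10231. It had 24, 20 and 28 counts in H2B/p53dIEC and 15, 12 and 12 in control libraries. Against controls the call did not hold in every removal of 1 library, though it held under each other alternative. Among the 64 tested members with under 25% of such stretches shared, 0 were higher and 30 lower.

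H2B/p53dIEC organoids were next compared with H2BdIEC organoids. These genotypes differed in Rnaseh2b too, at 1.08 to 2.15 CPM in H2B/p53dIEC and 4.97 to 7.04 CPM in H2BdIEC (log2 fold change -1.82 ± 0.23, adjusted p = 0.000147). Of 79 members 1 was higher and 23 lower, against 13.9% and 15.4% of all genes. Ndufb10 was at -0.43 ± 0.06, adjusted p = 0.000413, Uqcrh at -0.47 ± 0.08, adjusted p = 0.000783, Cox7a2l at -0.38 ± 0.06, adjusted p = 0.000935 and Atp5c1 at -0.38 ± 0.08, adjusted p = 0.00315. All 4 complex II genes were lower again, between -0.27 and -0.24, and Atp5g2 was higher at 1.63 ± 0.36, adjusted p = 0.00527. The number of calls was 45 without H2BdIEC A and 12 and 13 without H2B/p53dIEC 1 and 2. Cell type markers differed too. The stem cell markers Olfm4 (1.59), Ascl2 (1.45) and Smoc2 (0.18) were called higher, and Lgr5 did not pass. Of the Paneth cell markers Lyz1 was higher (1.67), Defa24 lower (-0.78) and Mmp7 not called. Of the enterocyte markers only Alpi (0.69) and Anpep (-0.39) were called, and of the pan-epithelial markers only Vil1 (-0.27) and Krt20 (-0.93). Their part was not tested.

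H2BdIEC organoids against controls gave few calls. Of 79 members 0 were higher and 4 lower, against 2.08% and 1.97% of all genes, with a median of -0.09 and 66 of 79 estimates below 0. Ndufa4l2 was at -0.90 ± 0.13, adjusted p = 0.00183, Ndufa6 at -0.41 ± 0.10, adjusted p = 0.0348, Uqcrb at -0.36 ± 0.09, adjusted p = 0.0409, and Cox6a2 at -1.60 ± 0.30, adjusted p = 0.0101. Of these, Ndufa4l2 was called with each library left out in turn. The count was 1 without H2BdIEC B and 2 without any single H2B/p53dIEC library, control B or control C, and 6 at most. These 3 organoid comparisons share libraries, so they are not independent. In H2BdIEC organoids 2 of 4 stem cell and 2 of 3 Paneth cell markers were called lower than in controls and 1 of 8 enterocyte markers higher, and their part was not tested.

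The other lists were counted in H2B/p53dIEC against control organoids as well, beside 16.7% of all genes called higher and 16.6% called lower. All 17 glycolysis genes were lower, with a median of -0.75, among them Pfkp, phosphofructokinase (-1.50 ± 0.07, adjusted p = 1.02e-07), Hk1, hexokinase (-1.19 ± 0.07, adjusted p = 4.42e-07), and Aldoa, aldolase (-1.02 ± 0.09, adjusted p = 9.25e-06). Of 16 TCA cycle genes 0 were higher and 10 lower, with Pdhb, of pyruvate dehydrogenase, at -0.66 ± 0.07, adjusted p = 2.53e-05 and Mdh2, malate dehydrogenase, at -0.47 ± 0.07, adjusted p = 0.000288. Of 7 tested mitochondrially encoded subunits none passed. Of 47 assembly factors 4 were higher and 12 lower, with Timmdc1, of complex I assembly, at -0.80 ± 0.08, adjusted p = 1.33e-05. Ppargc1a, the coactivator PGC-1alpha, was lower at -2.14 ± 0.27, adjusted p = 0.0002, within a list of 19 regulators with 3 higher and 4 lower. Of 77 mitochondrial ribosome genes 8 were higher and 6 lower, and of 11 carriers and porins 1 was higher, Slc25a4, the ADP/ATP carrier (0.93 ± 0.07, adjusted p = 1.07e-06), and 6 were lower. Of 9 electron carriers and subunits outside the name rule 0 were higher and 2 lower, the subunits Cox4i1 (-0.29 ± 0.07, adjusted p = 0.00812) and Ndufab1 (-0.25 ± 0.09, adjusted p = 0.0453). The 4 stem cell markers summed to 1969 to 2033 CPM in H2B/p53dIEC organoids and 1203 to 1429 CPM in controls, with 3 called higher, and their part in the results was not tested.

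In crypts of 52-week-old mice, H2BdIEC against control, none of 77 members tested passed in edgeR's quasi-likelihood test, while 5.16% of all 14596 genes were called higher and 4.87% lower. At an unadjusted p under 0.05 there was 1 member, and DESeq2's Wald test called 0. Without control library Crypt_981, 1 member was called. The smallest adjusted p belonged to Atp5g2 (-0.35 ± 0.13, adjusted p = 0.111), Cox7a2l (-0.28 ± 0.13, adjusted p = 0.181) and Cox7a1 (0.51 ± 0.26, adjusted p = 0.236). Of the 54 accessory members 47 had an estimate above 0 (median 0.15), and of the 22 core members 11 did (median -0.01). None of these estimates passed, and the part of transcript length in them was not tested. The 13 mitochondrially encoded subunits held 2.60 ± 0.656% of all counts in H2BdIEC and 1.42 ± 0.314% in control crypts (SD, n = 4 each), and 7 of 13 were called higher, against 0 of 77 nuclear members. The difference between the 2 gene groups was not tested. Stem cell markers summed to 160.3 to 292 CPM in H2BdIEC and 593 to 727 CPM in control crypts, with 3 of 4 called lower. The 3 Paneth cell markers summed to 1552 to 2479 CPM in H2BdIEC and 3497 to 8660 CPM in control crypts, with 2 called lower (Lyz1 at -1.62 and Defa24 at -1.92). The 8 enterocyte markers summed to 28952 to 38347 CPM in H2BdIEC and 20026 to 29143 CPM in control crypts, with 1 called higher (Alpi at 1.36). Acinar pancreas markers summed to 25.8 to 365 CPM in H2BdIEC, highest in library Crypt_976, and 16.6 to 97.4 CPM in control crypts; none of the 6 tested passed, although estimates reached 9.09 for Ctrb1 (adjusted p = 0.0697). The part of these cells in the crypt results was not tested.

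Whether the H2BdIEC effect differed between crypts and organoids was tested as an interaction. None of 79 members passed in edgeR's quasi-likelihood test, 4 had an unadjusted p under 0.05, DESeq2's Wald test called 0, and of all 17163 genes 2.30% were called higher and 1.72% lower. The difference, crypt effect minus organoid effect, had a median of 0.24 for members and 0.02 for all genes. Its smallest adjusted p was 0.123, for Ndufa6, at 0.62 ± 0.22 (log2 ± SE). Without control library Crypt_981, 2 members passed. Some pseudogenes of these families were near 0 in crypts and had counts in organoids, and the part of read assignment in this comparison was not tested.

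Several subunits exist as paralogous isoforms. Cox7a1 is the heart and muscle isoform of subunit 7a of complex IV and Cox7a2 the widely expressed one. Cox7a1 made up 40.9 ± 4.36% of the summed per-length level of the pair in H2BdIEC crypts and 35.1 ± 3.04% in control crypts (SD, n = 4 each). In tissue it made up 12.1 ± 9.17% in tumors, 24.4 ± 5.39% in adjacent tissue and 22.3 ± 2.55% in tissue controls. In organoids it was 5.27 ± 0.902% in H2B/p53dIEC, 7.18 ± 2.07% in H2BdIEC and 9.37 ± 2.25% in controls (SD, n = 3 each). Striated muscle markers summed to at most 1.26 CPM in crypts and smooth muscle markers to at most 30.4 CPM, with 4 of 7 and 0 of 8 at 0 in H2BdIEC and 3 of 7 and 0 of 8 at 0 in control crypts.

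Tumors divided in Cox7a1. It had 32.6, 3.55, 2.17 and 23.0 CPM in tumors 1349, 1323, 1322 and 1319 and 31.3, 59.6, 24.2 and 26.4 CPM in adjacent tissue of the same mice (-1.21 ± 0.67, adjusted p = 0.161), so the groups overlapped. The 2 low tumors are the 2 with the lowest enterocyte marker sums given above. The adjacent sample of mouse 1323, with the highest Cox7a1 of the tissue set, has the highest enterocyte sum. This order did not hold throughout: tumor 1349 had more Cox7a1 than the adjacent samples of mice 1349, 1322 and 1319, whose enterocyte sums were higher. Smooth muscle markers and the striated muscle marker Ckm were also lower in tumors than in adjacent tissue. The part of enterocytes and of muscle in the Cox7a1 level of tissue was not tested. In organoids Cox7a1 was lower in H2B/p53dIEC than in controls, at 5.22, 6.64 and 5.40 CPM against 9.96, 17.2 and 11.8 CPM (-1.18 ± 0.21, adjusted p = 0.00114), where enterocyte marker sums were 2556 to 2739 CPM in H2B/p53dIEC and 2075 to 3197 CPM in control organoids. These sums overlapped, but 3 of the 8 enterocyte markers were called higher, Apoa4 at 1.13 (adjusted p = 0.0032), Alpi at 0.60 (adjusted p = 0.0026) and Fabp2 at 0.52 (adjusted p = 0.0121). Of the 3 Paneth cell markers Lyz1 was called higher at 0.54, and Mmp7 and Defa24 were called lower at -0.79 and -0.85, with sums of 1008 to 1046 CPM in H2B/p53dIEC and 1022 to 1210 CPM in control organoids. The part of these cells in the Cox7a1 level was not tested.

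**Figure D5:**
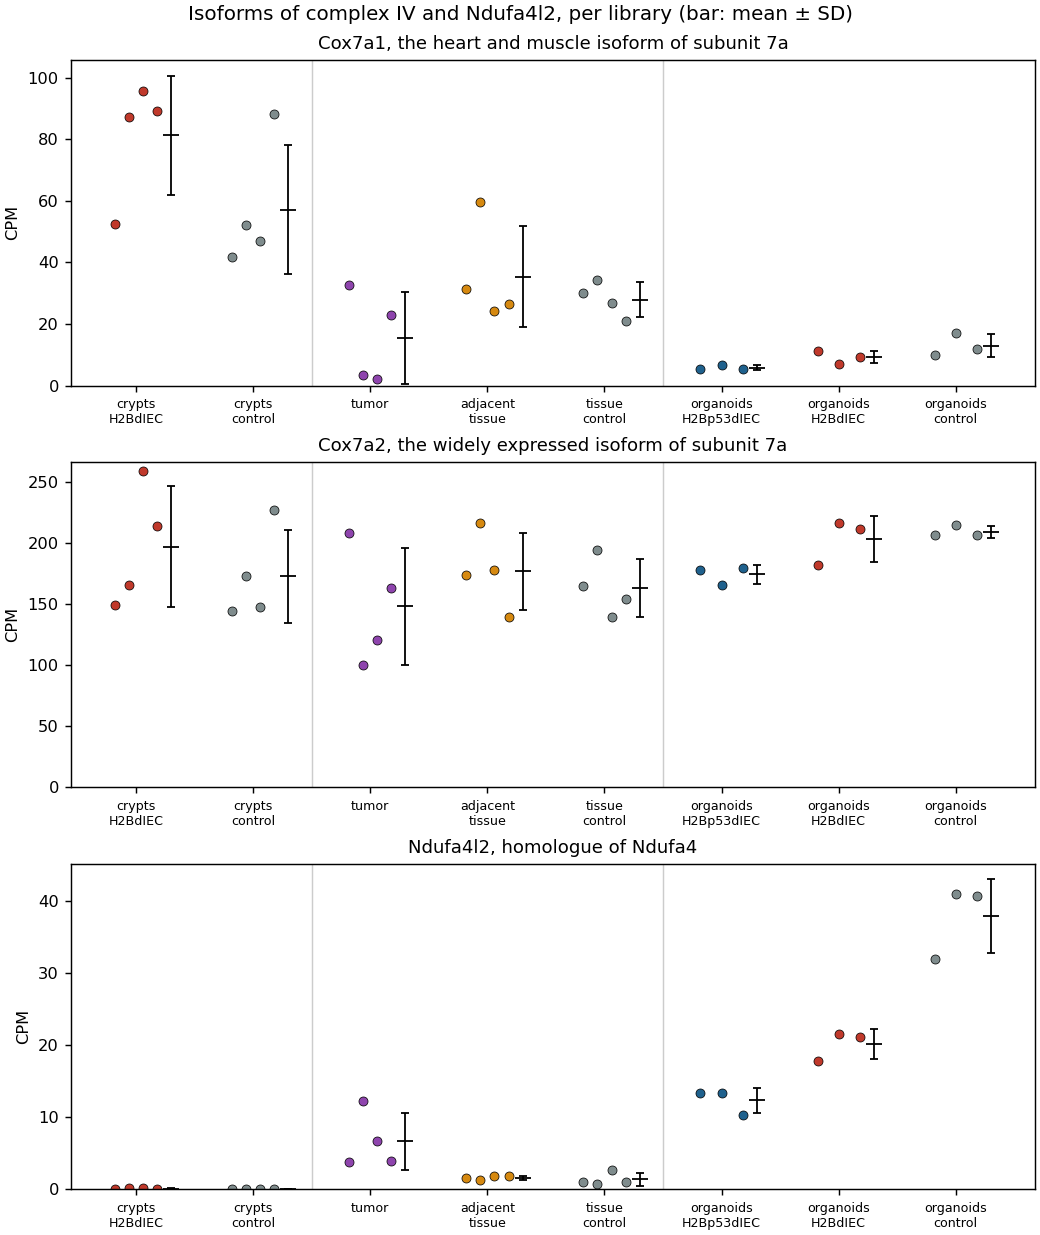
CPM of Cox7a1, Cox7a2 and Ndufa4l2 in each library, with the group mean ± SD as a bar to the right of the points; levels are comparable within crypts, tissue and organoids only. Cox7a1 is low in 2 of 4 tumors, and Ndufa4l2 is lowest in H2B/p53dIEC, intermediate in H2BdIEC and highest in control organoids without overlap.

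Ndufa4l2 had 13.3, 13.3 and 10.3 CPM in H2B/p53dIEC organoids, 17.7, 21.5 and 21.1 CPM in H2BdIEC and 31.97, 41.0 and 40.8 CPM in controls. The 3 genotypes did not overlap, and each comparison passed: -1.62 ± 0.13, adjusted p = 3.2e-06 for H2B/p53dIEC over control, -0.72 ± 0.14, adjusted p = 0.00244 for H2B/p53dIEC over H2BdIEC, and -0.90 ± 0.13, adjusted p = 0.00183 for H2BdIEC over control. The same gene was higher in tumors of H2B/p53dIEC mice. In crypts it was at most 0.0748 CPM, at or under 3 counts in every library, and was not tested. Of the other isoforms, Cox6b2, known from testis, was lower in H2B/p53dIEC than in control organoids, at 3.01, 2.95 and 3.46 CPM against 6.96, 8.57 and 6.43 CPM (-1.23 ± 0.20, adjusted p = 0.000613). Cox6a2, the muscle isoform of 6a, was at 0.860, 1.35 and 1.44 CPM in H2B/p53dIEC and 2.76, 2.06 and 2.56 CPM in control organoids (-1.01 ± 0.25, adjusted p = 0.00899). Both are minor beside Cox6b1 and Cox6a1, of which Cox6a1 had 297, 287 and 281 CPM in H2B/p53dIEC and 291, 317 and 376 CPM in control organoids and did not pass. Cox8c had 0 counts in all 29 libraries and Cox7b2 was above 0 in 1.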

How the data were processed

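RNA was sequenced from stranded mRNA libraries made from 500 ng of RNA, per the labels' protocols. The authors deposited raw read counts per Ensembl gene for each library on GRCm38, and the submitters' processing notes name cutadapt 1.5 and 1.9, Trimmomatic 0.36, TopHat2 2.0.14 and HTSeq without stating their roles. The crypt counts list 10145821 to 15846029 alignments per library as not unique, and the tissue and organoid counts give no such number. Some pseudogenes left out above had counts only in organoids. Cox6c2 was at most 0.0719 CPM in control crypts, at most 0.0429 CPM in tissue controls and 85.6 to 87.1 CPM in control organoids. Atp5l-ps1 was at most 0.0958 CPM in control organoids. Members differed as well, although crypts and organoids were scaled apart. The median ratio of control organoid to control crypt CPM was 0.486 for 15 members with 25% or more of their 50-base stretches shared. It was 1.40 for 60 members with less. The lowest ratios were those of Atp5g2 (0.0133), Atp5l (0.0236) and Cox7c (0.0280). How reads matching several genes were treated is not stated, and its part in the results was not tested.

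Crypt, tissue and organoid counts were fitted apart with edgeR 4.0.16 in R 4.3.3 (TMM scaling, filterByExpr, robust quasi-likelihood, 1 coefficient per group). The interaction fit joined crypts and organoids, H2BdIEC and control. P-values were adjusted over all genes tested, and the pipeline was tested on simulated data. Alternatives were DESeq2 1.42.0 (its size factors within edgeR, and its Wald test), no filter on low counts, no mitochondrially encoded genes, only the 2 groups compared, a replicate block, and each library left out in turn. Plots used Python 3.11.15 and matplotlib 3.10.9. Members, lists and markers were chosen with earlier results of these data known. The text names, per comparison and complex, up to 4 members with the smallest p, the members with the highest level per length, the isoform sets, and up to 4 genes of other lists, and any other called member it describes was chosen after its values were seen.

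Tumor and adjacent libraries are paired because the labels name the same mice, and correlations of their deviations from the group means were 0.186, -0.185, 0.154 and 0.0336. No library pair of a group was identical, and each differed beyond counting noise (chi-square per degree of freedom at least 1.93). The spread was unequal between groups. Chi-square per degree of freedom was 1.93 to 2.69 in H2B/p53dIEC organoids, 3.63 to 17.8 in H2BdIEC and 7.78 to 7.97 in control organoids. It was 21.3 to 210 in control crypts and 67.6 to 250 in tumors. The H2B/p53dIEC organoid libraries are not stated to be separate cultures, so p-values there measure only this small spread. The depth of each library sets its precision, and in tissue control 1320 the value of 1 count is 2.67 CPM.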

Additional observations from a re-analysis of the deposited data

Results flagged for a closer look

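In groups of 4 libraries, a library was singled out where its gap to the nearest other took up more of the group's range than Dixon's test allows for 4 samples. This was met in 7 of 97 groups tested, and chance gives about 1 in 20. In adjacent tissue, sample 1319 was low in complex II members, at 0.0801% of nuclear counts with the others all at 0.101%, and in Sdha, at 323 CPM with the others at 429 to 440.0 CPM. Among tumors, 1349 was high in Atp5f1, a stalk subunit of the ATP synthase, at 257 CPM with the others at 145 to 153 CPM. Tumor 1323 was low in Ndufa1, at 40.1 CPM with the others at 75.8 to 81.5 CPM. Among tissue controls, 1316 was high in Ndufa11, at 79.1 CPM with the others at 58.6 to 61.5 CPM. Control 1320 was high in Ndufa4l2, at 2.67 CPM with the others at 0.729 to 0.971 CPM, a value that is 1 count. Control 1321 was low in Uqcrc2, at 359 CPM with the others at 379 to 382 CPM.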

How the results depend on the processing

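No called member changed direction under the alternatives run, while the uncalled summed levels of complexes III, IV and V in tumors over adjacent tissue changed sign with the scaling. For tumors over adjacent tissue the 16 calls became 9 with no filter on low counts, 7 with only the 2 groups in the fit and 6 with the mouse as a replicate block, and 7 to 20 with 1 library left out. Of the 11 lower members 5 were called in each removal and 4 under each other alternative, and of the 5 higher members 2 and 1. Tumors over tissue controls gave 19 to 27 calls with 1 library left out. H2BdIEC over control organoids gave 10 calls with no filter, 2 with only the 2 groups, 1 with the library letter as a replicate block, and 1 to 6 with 1 library left out. Whether the letters pair these libraries is not stated. Correlations of deviations were 0.0166, -0.258 and 0.198 for equal letters and -0.280 to 0.283 for unequal ones. These ranges overlap, so the correlations cannot decide it. H2B/p53dIEC over H2BdIEC organoids gave 12 to 45, and H2B/p53dIEC over controls 20 to 54, with 53 for only the 2 groups. Of the 33 members lower there 17 were called in each removal and 33 under each other alternative. Removals gave 0 to 1 calls in crypts, 0 to 0 in adjacent over control tissue and 0 to 2 for the interaction. Where fewer libraries or genes enter a fit, its spread and adjustment change by construction; other causes were not tested.

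With TMM-scaled totals in place of nuclear counts, the log2 ratio of summed levels in complexes I to V was 0.094, -0.74, -0.36, -0.14 and -0.32 for tumors over adjacent tissue. It was 0.058, -0.98, -0.41, -0.16 and -0.58 for tumors over tissue controls, and -0.24, -0.30, -0.23, -0.23 and -0.22 for H2B/p53dIEC over control organoids. For complex II in H2B/p53dIEC over H2BdIEC organoids it was -0.25. Depth limits tissue control 1320 and the low isoforms.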

Other observations

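Members often lie head to head with another gene. Of 82 members 17 (20.7%) had a protein-coding neighbour on the other strand whose start lay within 1000 bases, against 1536 of 21992 protein-coding genes (6.98%). This held for 9 of 37 complex I genes, 3 of 4 complex II genes and 0 of 16 complex IV genes. In tumors over adjacent tissue, 7 called members had such a neighbour, of which 2 had the same call, 5 had none and 0 the opposite. Sdha, at a log2 fold change of -1.18, faces Ccdc127, at 0.10 ± 0.17 (adjusted p = 0.667), while Ndufa11, at 0.45, faces Vmac, at 1.005 ± 0.185 (adjusted p = 0.000935). In H2B/p53dIEC over control organoids the counts were the same, with 7 called members, 2 neighbours with the same call, 5 with none and 0 opposite. The difference between a member and its neighbour was not tested.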
